A study of Mus musculus with 8 samples.

Results

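The 28 genes described here make, regulate, take up, move or esterify cholesterol in the liver. They were chosen by name as members of the SREBP2 pathway and of sterol synthesis, uptake and esterification, and all 28 were found by gene symbol among the 52551 features counted in liver RNA of male C57BL/6 mice aged 6 weeks. RNA was read by QuantSeq, which sequences the 3′ ends of messenger RNAs. The first group, PiZ/Chop-/-, carried PiZ, a transgene that makes the misfolding Z form of human alpha-1 antitrypsin, and lacked Chop, the gene Ddit3 that encodes the stress transcription factor CHOP. The group it was set against, PiZ, carried the same transgene with Chop intact, so the transgene was common to both groups. Each group had 4 libraries. The labels do not give the promoter of the transgene, the way Chop was deleted or how mice map to libraries, and the p-values therefore measure only the spread between these libraries. Wild-type livers, which the design also names, were not analysed here.

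Total counts ran from 1650260 to 3064385 per library, and 8669 genes passed the filter on low counts. Levels are given as CPM, counts scaled to a common library size with edgeR's TMM factors. Ddit3 lay between 1.72 and 4.19 CPM in PiZ/Chop-/- livers, against 85.4 to 191 CPM in PiZ livers, so every library followed its label. The transgene, counted as SERPINA1, lay between 554 and 712 CPM in PiZ/Chop-/- livers, against 950.2 to 1845 CPM in PiZ livers, and fell by 1.23 on the log2 scale (adjusted p = 0.00873, edgeR). Its part in the sterol values was not tested. The 10 hepatocyte markers summed to 72590 to 83780 CPM in PiZ/Chop-/- livers and to 75760 to 87520 CPM in PiZ livers. Of the 7 marker lists of other cells, 2 had sums that did not overlap between the groups. The 14 Kupffer cell and macrophage markers came to 869 to 1045 CPM in PiZ/Chop-/- livers and 1129 to 1616 CPM in PiZ livers, and the 12 endothelial markers found came to 532 to 587 CPM in PiZ/Chop-/- livers and 397 to 442 CPM in PiZ livers. The sums of stellate cell, cholangiocyte, lymphocyte, neutrophil and red cell markers overlapped. No tested marker on these lists passed, while 1.03% of all tested genes did. Enough counts for a test were present for all 10 hepatocyte, 14 Kupffer cell and macrophage and 12 endothelial markers. Fewer were tested on the other lists: 7 of 13 stellate cell, 3 of 10 cholangiocyte, 0 of 15 lymphocyte, 2 of 8 neutrophil and 5 of 7 red cell markers. The part of cell mixture in the values below was not tested. In bulk tissue fewer cells of a type and less RNA per cell cannot be told apart.

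Cells build cholesterol from acetyl-CoA through mevalonate, isoprenoids, squalene and lanosterol. SREBP2, encoded by Srebf2, is the transcription factor that switches this whole chain on when membranes of the endoplasmic reticulum are short of sterol. SCAP carries it to the Golgi for cleavage, and INSIG1 holds it back when sterol is plentiful. The enzymes are therefore known to move as a block in liver, with sterol supply, feeding and time of day.

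None of the 28 genes passed the test between PiZ/Chop-/- and PiZ livers. Of the 28 genes, 26 passed the filter on low counts, and 0 of these 26 were called higher or lower (edgeR quasi-likelihood test, Benjamini-Hochberg adjusted p below 0.05 over all tested genes), while 1.03% of all 8669 tested genes were called. At an unadjusted p below 0.05 the test found 1 member, Stard4, against 13.1% of all tested genes. DESeq2 also called 0 and found Stard4 alone at that level, and limma-voom called 0 and found Stard4 and Sqle. The log2 fold changes of PiZ/Chop-/- over PiZ split evenly, with 13 above 0 and 13 below, and their median was 0.028, beside -0.0016 over all tested genes. They ran from -0.88 for Fdft1 to 0.97 for Insig1. All 28 genes had groups that overlapped in CPM, whereas 7.88% of tested genes had groups that did not. The highest library of a group stood above its lowest by a median of 2.81-fold over the 26 genes in PiZ/Chop-/- livers and 1.96-fold in PiZ livers. Over all tested genes these medians were 1.70-fold in PiZ/Chop-/- livers and 1.82-fold in PiZ livers.

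**Figure D1:**
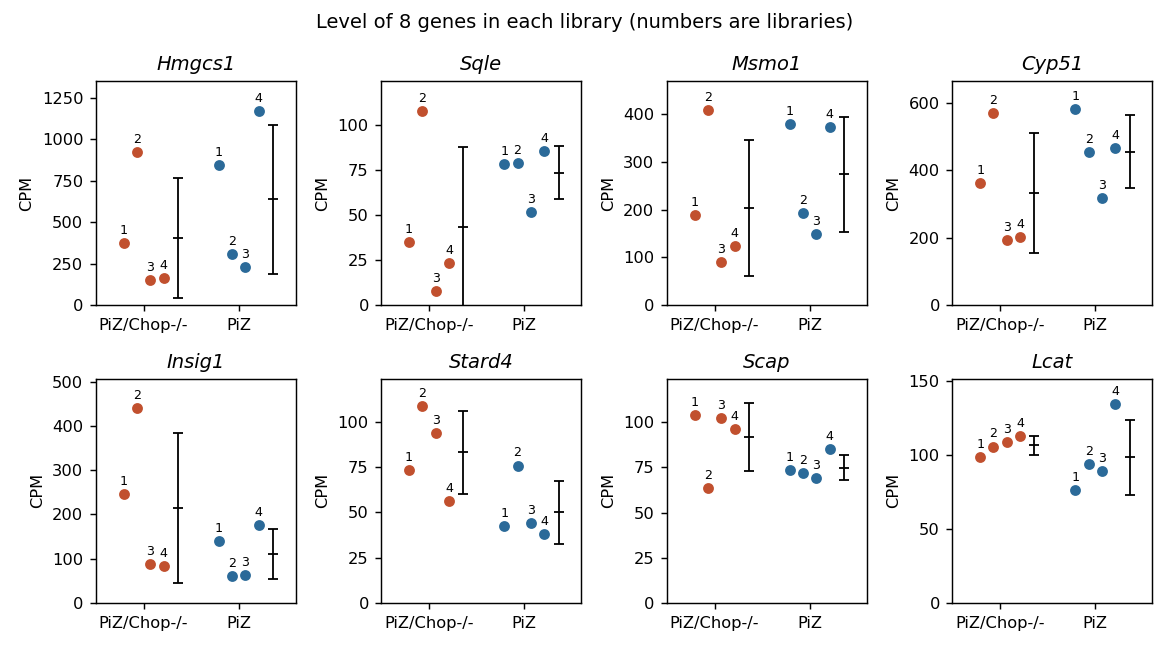
CPM of 8 genes in each library (numbered points), with PiZ/Chop-/- in orange and PiZ in blue, and mean ± SD (n = 4 each) as black bars. Hmgcs1, Sqle, Msmo1, Cyp51 and Insig1 are highest in library 2 among the PiZ/Chop-/- livers, while Scap (63.8 to 104 CPM) and Lcat (98.5 to 113 CPM) span less there.

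The early enzymes lead from acetyl-CoA to the isoprenoids. Hmgcs1 (ENSMUSG00000093930, chromosome 13, 119690379 to 119708260, plus strand, mm10) makes the HMG-CoA from which mevalonate is formed. It stood at 377, 923, 153 and 165 CPM in PiZ/Chop-/- libraries 1 to 4, against 847, 308, 231 and 1173 CPM in PiZ libraries 1 to 4. PiZ/Chop-/- library 2 and PiZ libraries 1 and 4 were high, and the groups overlapped over most of their range. The log2 fold change was -0.66 (SE 0.79, 95% interval -2.53 to 1.21, adjusted p = 0.781, edgeR). With single libraries left out, its lowest value was -1.46, reached when PiZ/Chop-/- library 2 was omitted, and its highest was -0.17, reached when PiZ library 4 was omitted.

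Mevalonate is next phosphorylated by Mvk and Pmvk and decarboxylated by Mvd. Mvk had the lowest p of the 18 enzymes tested, with a mean of 23.6 ± 8.96 CPM in PiZ/Chop-/- livers and 36.5 ± 13.7 CPM in PiZ livers (SD, n = 4 each; log2 fold change -0.62, 95% interval -1.29 to 0.05, adjusted p = 0.415, edgeR). Pmvk stood at 209, 520, 77.0 and 118 CPM in PiZ/Chop-/- libraries, against 163, 164, 111 and 125 CPM in PiZ libraries. Its PiZ values were close together, and PiZ/Chop-/- libraries 1 and 2 lay above all of them and library 3 below all of them. Mvd stood at 190, 416, 48.2 and 93.2 CPM in PiZ/Chop-/- libraries, against 335, 200, 114 and 161 CPM in PiZ libraries. Here too PiZ/Chop-/- library 2 was the highest of all 8 and library 3 the lowest.

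Fdps, which joins isoprene units to farnesyl diphosphate, averaged 170 ± 120 CPM in PiZ/Chop-/- livers and 197 ± 46.2 CPM in PiZ livers (SD, n = 4 each). Ggps1, which lengthens that product for protein prenylation, had only 4.65 to 12.4 CPM in PiZ/Chop-/- livers and 3.69 to 8.04 CPM in PiZ livers, and did not share the pattern: its highest PiZ/Chop-/- value was in library 3. Acat2, the cytosolic thiolase at the entry of the chain, varied less, at 101 to 147 CPM in PiZ/Chop-/- livers and 71.7 to 165 CPM in PiZ livers. Idi1, the isomerase that makes the second isoprene unit, had 6, 12, 4 and 5 counts in PiZ/Chop-/- libraries, against 6, 1, 2 and 10 counts in PiZ libraries, too few for a test. Adjusted p for the 7 tested genes of this stretch ran from 0.415 to 0.964.

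Squalene and lanosterol are formed by Fdft1, Sqle and Lss. Sqle (ENSMUSG00000022351, chromosome 15, 59315077 to 59331192, plus strand), the squalene epoxidase and a rate-limiting oxygen-dependent step, had the widest span of the 26 among PiZ/Chop-/- libraries and a narrow one among PiZ libraries. It stood at 34.8, 108, 7.94 and 23.3 CPM in PiZ/Chop-/- libraries 1 to 4, against 78.1, 78.7, 51.8 and 85.4 CPM in PiZ libraries 1 to 4. The PiZ libraries were within 1.65-fold of each other and the PiZ/Chop-/- libraries within 13.5-fold: libraries 1, 3 and 4 lay below every PiZ library and library 2 above every one. With all 8 libraries the log2 fold change was -0.77 (SE 0.68, 95% interval -2.36 to 0.82, adjusted p = 0.692, edgeR).

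Without PiZ/Chop-/- library 2 Sqle passed the test, at -1.72 (SE 0.38, adjusted p = 0.0358). In that fit 1.13% of 9009 tested genes were called lower, and Sqle was the 1 member called. In either direction, 11 of the 26 had an unadjusted p below 0.05, against 14.6% of all tested genes. Among these 11, Stard4 (0.58), Npc1 (0.54) and Scap (0.43) had log2 fold changes above 0 and the rest below. Fold changes of Sqle with any other library left out ran from -0.91 to -0.42, with adjusted p between 0.703 and 0.833. Its call thus hangs on 1 library.

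**Figure D2:**
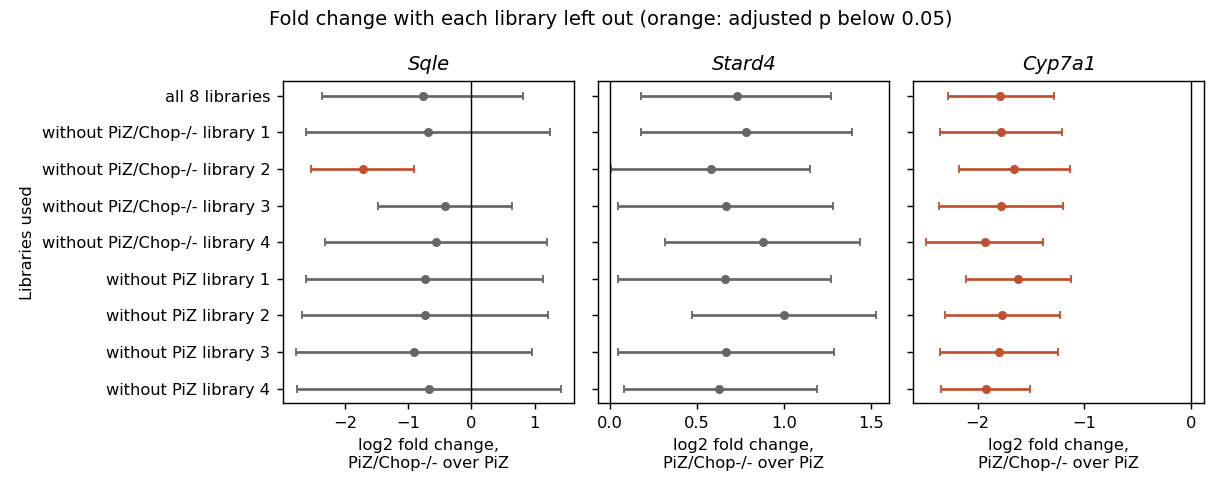
Log2 fold change of PiZ/Chop-/- over PiZ with its 95% interval for Sqle, Stard4 and Cyp7a1, with all 8 libraries and with each left out in turn; orange marks an adjusted p below 0.05. Sqle passes only without PiZ/Chop-/- library 2 (-1.72), Stard4 in none of these fits, and Cyp7a1 in all of them.

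Fdft1, the squalene synthase, stood at 34.8, 68.4, 23.8 and 22.4 CPM in PiZ/Chop-/- libraries, against 73.2, 28.2, 33.8 and 139 CPM in PiZ libraries. Its log2 fold change was the lowest of the 26, at -0.88 (SE 0.59, adjusted p = 0.583, edgeR), and PiZ libraries 1 and 4 were the high ones. With single libraries left out it ran from -1.33 without PiZ/Chop-/- library 2 to -0.24 without PiZ library 4, where Sqle, at -0.67, was the lowest. The 3′ end of Fdft1 lies under Ctsb on the opposite strand in GENCODE M21, and the strand setting of the counting is not given, so part of its reads cannot be told apart from those of Ctsb. Lss, which closes squalene into lanosterol, ran from 8.94 to 31.0 CPM in PiZ/Chop-/- livers and from 8.04 to 22.8 CPM in PiZ livers, with its highest PiZ/Chop-/- value again in library 2.

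**Figure D3:**
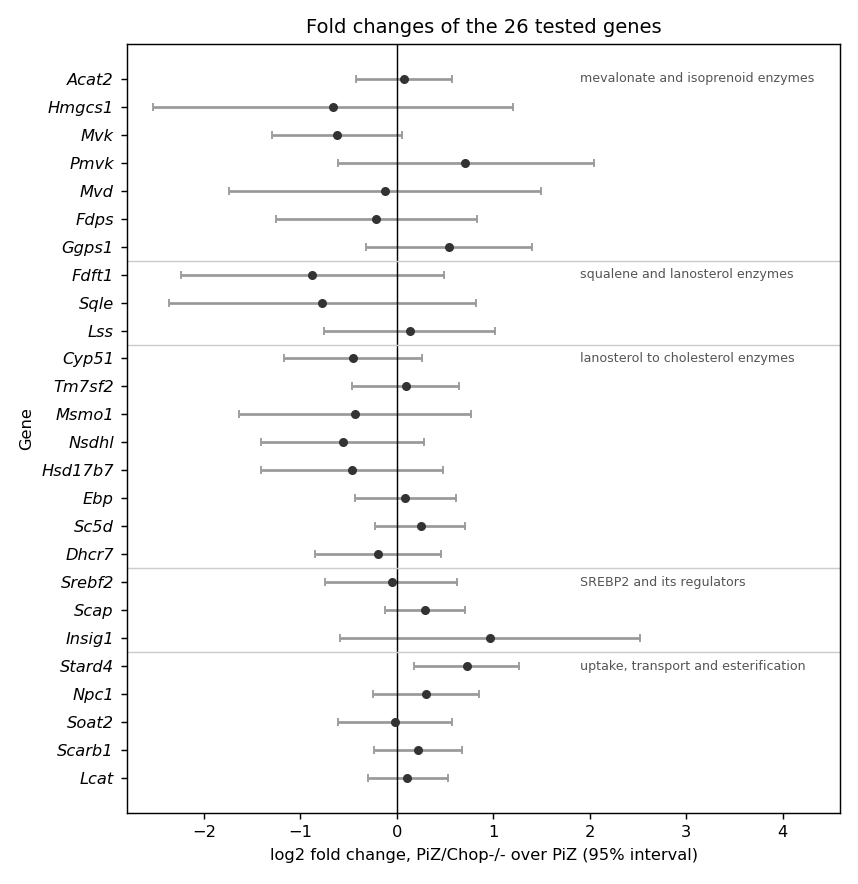
Log2 fold changes of PiZ/Chop-/- over PiZ for the 26 tested genes (points) with 95% intervals (bars), grouped by role. Only the interval of Stard4 (0.18 to 1.27) leaves out 0, and no adjusted p is below 0.05.

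From lanosterol, 8 enzymes strip methyl groups and shift double bonds to give cholesterol. Cyp51, the lanosterol demethylase, stood at 362, 571, 195 and 201 CPM in PiZ/Chop-/- libraries, against 582, 453, 317 and 466 CPM in PiZ libraries. PiZ/Chop-/- libraries 3 and 4 were the lowest of the 8, and the log2 fold change was -0.45 (SE 0.33, 95% interval -1.17 to 0.26, adjusted p = 0.602, edgeR). Akap9 covers its 3′ end on the opposite strand. Msmo1, the methylsterol oxidase that follows, stood at 189, 409, 90.8 and 124 CPM in PiZ/Chop-/- libraries, against 380, 193, 149 and 372 CPM in PiZ libraries. It repeated the order seen in Hmgcs1 in both groups, apart from the top pair of PiZ libraries.

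Nsdhl and Hsd17b7, which remove the C4 methyl groups with Msmo1, had log2 fold changes of -0.56 and -0.46 (adjusted p = 0.576 and 0.699, edgeR). Hsd17b7 stood at 28.8, 82.2, 22.3 and 27.0 CPM in PiZ/Chop-/- libraries, against 80.0, 35.9, 41.5 and 63.1 CPM in PiZ libraries, so that 3 of the 4 PiZ/Chop-/- values lay below every PiZ value and the other lay above every one, as in Sqle. Ebp, the sterol isomerase, and Sc5d, the desaturase of the next step, were steadier. Ebp ran from 650 to 1420 CPM in PiZ/Chop-/- livers and from 757 to 1071 CPM in PiZ livers, and Sc5d from 563 to 961 CPM in PiZ/Chop-/- livers and from 485 to 729 CPM in PiZ livers. Dhcr7, which completes cholesterol, averaged 20.6 ± 9.23 CPM in PiZ/Chop-/- livers and 23.4 ± 4.79 CPM in PiZ livers (SD, n = 4 each), and Tm7sf2, a sterol reductase, 20.9 ± 5.83 CPM in PiZ/Chop-/- livers and 19.7 ± 3.29 CPM in PiZ livers. All 8 had adjusted p between 0.576 and 0.919.

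Among the regulators, Srebf2 itself had a fold change near 0. It stood at 55.8, 58.6, 23.8 and 38.7 CPM in PiZ/Chop-/- libraries, against 77.5, 38.4, 35.0 and 34.2 CPM in PiZ libraries (log2 fold change -0.054, 95% interval -0.74 to 0.63, adjusted p = 0.964, edgeR). PiZ library 1 stood apart from the other 3 of its group, which lay between 34.2 and 38.4 CPM. Scap, the escort of SREBP2, was the steadiest of all members in its dispersion, with 104, 63.8, 102 and 96.4 CPM in PiZ/Chop-/- libraries, against 73.8, 71.9, 69.1 and 85.0 CPM in PiZ libraries; library 2, where the enzymes were highest, had the lowest Scap of its group. Mylip, the ubiquitin ligase that marks lipoprotein receptors for destruction, had 3, 4, 1 and 5 counts in PiZ/Chop-/- libraries, against 10, 3, 4 and 2 counts in PiZ libraries, and was not tested.

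Insig1, both a target and a brake of SREBP2, had the highest log2 fold change of the 26 at 0.97 (SE 0.66, 95% interval -0.59 to 2.52, adjusted p = 0.592, edgeR). It stood at 246, 441, 87.4 and 84.3 CPM in PiZ/Chop-/- libraries, against 140, 61.7, 63.3 and 176 CPM in PiZ libraries. Libraries 1 and 2 of the PiZ/Chop-/- group lay above every PiZ library and libraries 3 and 4 between the low and the high PiZ values. Like Hmgcs1 it was highest in PiZ/Chop-/- library 2 and in PiZ libraries 4 and 1, but its fold change lay above 0 and that of Hmgcs1 below. Left without PiZ/Chop-/- library 2, its fold change was 0.35.

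Of the genes of uptake, transport and esterification, Stard4 came closest to the threshold. Stard4 (ENSMUSG00000024378, chromosome 18, 33199355 to 33213862, minus strand) is a soluble carrier that moves cholesterol between membranes and is itself known as an SREBP2 target. It stood at 73.4, 109, 93.8 and 56.4 CPM in PiZ/Chop-/- libraries, against 42.4, 75.8, 44.0 and 38.0 CPM in PiZ libraries. PiZ library 2 lay among the PiZ/Chop-/- values and the other 3 PiZ libraries below all of them. The log2 fold change was 0.73 (SE 0.26, 95% interval 0.18 to 1.27, unadjusted p = 0.0120, adjusted p = 0.239, edgeR), so it failed the correction. Leaving out each library in turn gave 0.58 to 1.00, with the lowest adjusted p, 0.0881, without PiZ library 2.

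The other 4 genes of this class did not pass the test at either p. Npc1, which lets cholesterol out of lysosomes, averaged 117 ± 44.8 CPM in PiZ/Chop-/- livers and 94.9 ± 9.72 CPM in PiZ livers (SD, n = 4 each), and its 54.0 CPM in PiZ/Chop-/- library 2 was the lowest of all 8. Scarb1, the HDL receptor, averaged 53.9 ± 6.64 CPM in PiZ/Chop-/- livers and 46.5 ± 11.1 CPM in PiZ livers. Soat2, which esterifies cholesterol in hepatocytes, ran from 16.1 to 32.1 CPM in PiZ/Chop-/- livers and from 16.0 to 30.9 CPM in PiZ livers. Lcat, the plasma enzyme that esterifies cholesterol on HDL, averaged 107 ± 6.17 CPM in PiZ/Chop-/- livers and 98.6 ± 25.3 CPM in PiZ livers (SD, n = 4 each). Their log2 fold changes ran from -0.021 to 0.30, with 95% intervals that reached at most 0.85 and at least -0.61.

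**Figure D4:**
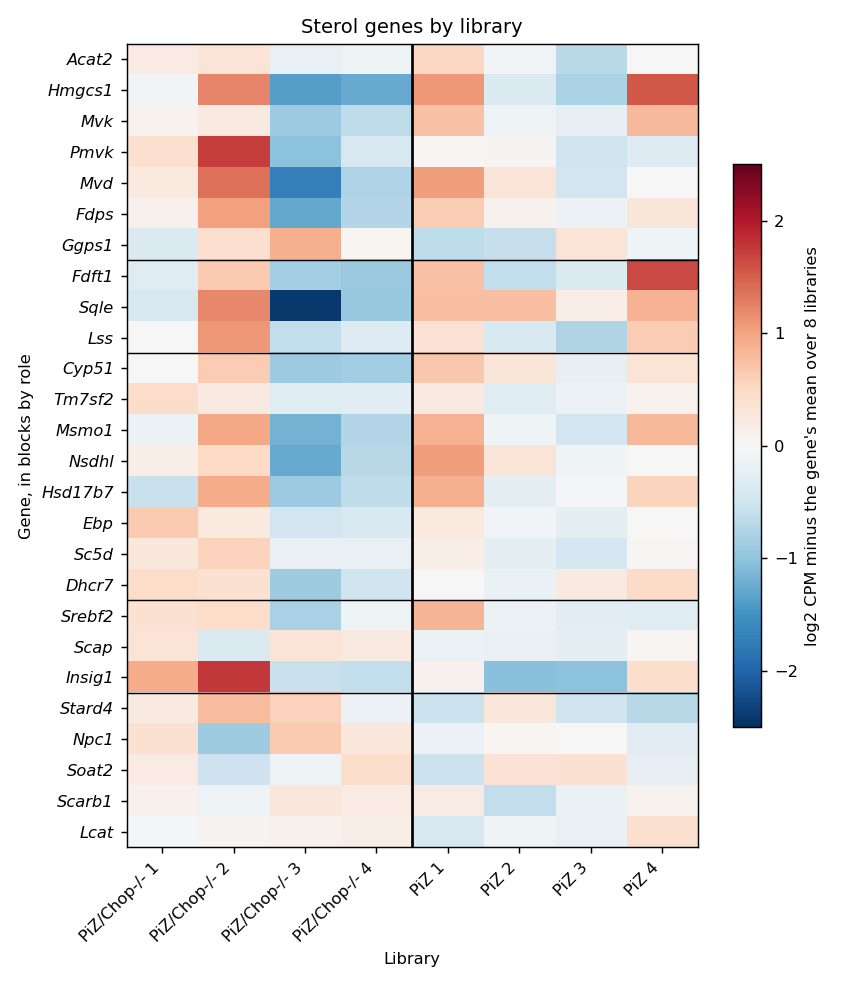
Log2 CPM of the 26 tested genes minus each gene's mean over the 8 libraries (colour), with genes in blocks by role and libraries in columns, PiZ/Chop-/- left of PiZ. The 14 of 18 enzymes highest in PiZ/Chop-/- library 2 are red there, and the 16 lowest in library 3 are blue there.

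Most enzymes shared their high and low libraries, more so in PiZ/Chop-/- livers than in PiZ livers by count. Of the 18 enzymes tested, 14 had their highest PiZ/Chop-/- value in library 2 and 16 their lowest in library 3, whereas 27.1% of all tested genes were highest in library 2 and 26.1% lowest in library 3. In the PiZ group 10 of the 18 were highest in library 1 and 6 in library 4, and 13 were lowest in library 3, against 24.5% and 32.8% of all tested genes highest in libraries 1 and 4 and 18.3% lowest in library 3. Ggps1 was an exception in both groups, with its highest value in library 3, and Pmvk was highest in PiZ library 2. The summed level of all 19 enzymes was 4093, 5810, 2085 and 2335 CPM in PiZ/Chop-/- libraries 1 to 4, against 4985, 3297, 2643 and 4659 CPM in PiZ libraries 1 to 4. Each genotype thus held both high and low libraries, and the sums overlapped. PiZ libraries 1 and 4 and PiZ/Chop-/- library 2 also resembled the rest of their groups least over all tested genes (mean correlation 0.931, 0.914 and 0.932). They also had the lowest total counts of all libraries, at 1650260, 1937449 and 1850275. The part of depth in these values was not tested. The 8 neutrophil markers summed to 87.9 CPM in PiZ/Chop-/- library 2, against 5.11 to 9.43 CPM in the other PiZ/Chop-/- libraries and 11.4 to 35.0 CPM in PiZ libraries, and their part in the spread was not tested.

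Dispersion put this spread on a scale that allows for counting noise. The biological coefficient of variation, the relative spread between libraries of one group as edgeR estimates it, had a median of 0.378 over the 18 enzymes, against 0.252 over all 8669 tested genes. Of the 18 enzymes 16 lay above that median, and 10 of them lay above 0.358, the start of the most variable 10% of tested genes. Hmgcs1, at 0.729, was more variable than 99.1% of tested genes, and Mvd (0.645), Sqle (0.652) and Insig1 (0.614) were each more variable than at least 98.6%. Of the 8 tested genes of regulation, uptake, transport and esterification, 5 lay above the median, and Scap (0.214), Lcat (0.218) and Scarb1 (0.221) lay below it, as did the enzymes Tm7sf2 (0.230) and Sc5d (0.248).

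**Figure D5:**
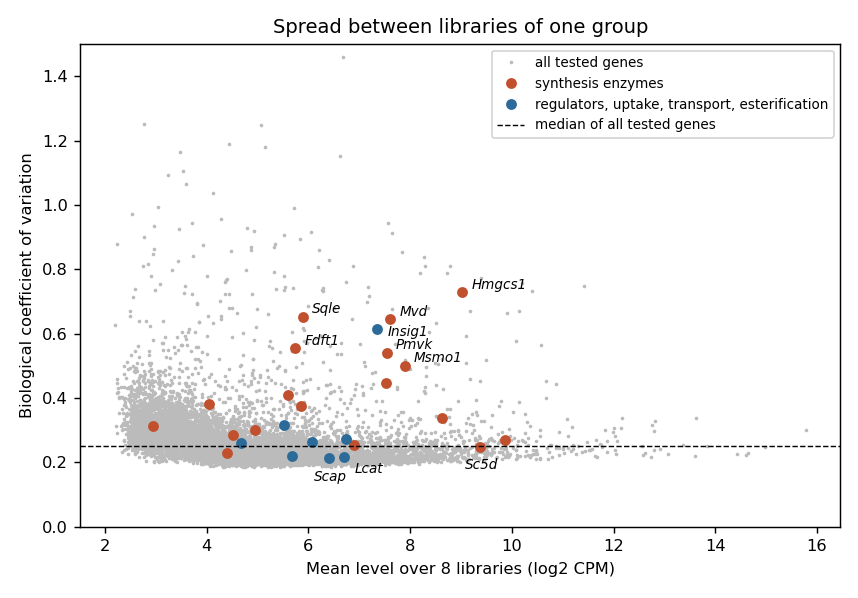
Biological coefficient of variation against mean log2 CPM for all 8669 tested genes (grey), with the synthesis enzymes in orange and the genes of regulation, uptake, transport and esterification in blue; the dashed line is the median of all tested genes, 0.252. Hmgcs1 (0.729), Sqle (0.652) and Mvd (0.645) lie above most genes of like level.

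Most promoters of the members held a short element. SREBP2 binds DNA weakly alone and is known to work with the factor NF-Y, which reads the letters CCAAT. Promoters of 21 of the 28 genes were in the RefSeq table for GRCm38.p6, the same assembly as mm10, as 25 windows of 250 bases before to 50 bases after an annotated start. On either strand these letters occurred in 19 of the 25 windows, those of 19 genes, against 37.4% of all 32851 windows of that length. The consensus sterol regulatory element, searched on both strands with 1 open position, was in 0 of the 25 and in 0.234% of all windows, which says only that its letters were not in these windows. The 250 bases before the start are shown for 2 enzymes of wide spread, Hmgcs1 and Mvd, for Mvk, whose window held the most boxes, and for Lcat, one of the steady genes, 5′ to 3′ on the strand of the gene. Capitals mark CCAAT and, where the box lies on the other strand, its reverse complement.
Hmgcs1, chr13:119690101-119690350, plus strand: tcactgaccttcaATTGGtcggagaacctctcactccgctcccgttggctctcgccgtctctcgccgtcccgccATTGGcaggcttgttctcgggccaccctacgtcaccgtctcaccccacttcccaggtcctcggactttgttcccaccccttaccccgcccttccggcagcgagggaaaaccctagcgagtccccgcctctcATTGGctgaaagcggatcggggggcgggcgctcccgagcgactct
Mvd, chr8:122443423-122443672, minus strand: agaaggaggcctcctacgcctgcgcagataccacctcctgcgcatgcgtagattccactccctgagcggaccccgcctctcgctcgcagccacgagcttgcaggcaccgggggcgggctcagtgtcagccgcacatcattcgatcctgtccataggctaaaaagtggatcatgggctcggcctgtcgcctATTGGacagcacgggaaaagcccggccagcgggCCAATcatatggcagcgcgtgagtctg
Mvk, chr5:114444019-114444268, plus strand: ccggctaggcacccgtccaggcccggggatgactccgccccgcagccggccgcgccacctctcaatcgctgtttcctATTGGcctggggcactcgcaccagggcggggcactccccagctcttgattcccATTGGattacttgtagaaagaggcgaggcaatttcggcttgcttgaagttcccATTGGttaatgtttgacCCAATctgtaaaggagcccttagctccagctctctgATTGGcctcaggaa
Lcat, chr8:105943403-105943652, minus strand: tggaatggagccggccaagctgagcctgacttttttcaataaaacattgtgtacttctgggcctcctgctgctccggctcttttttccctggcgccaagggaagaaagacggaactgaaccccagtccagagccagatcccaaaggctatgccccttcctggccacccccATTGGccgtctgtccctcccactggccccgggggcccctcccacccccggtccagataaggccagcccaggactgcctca
Counted from the start, the boxes before it lay at 237, 176 and 45 bases in Hmgcs1, at 60 and 27 bases in Mvd, at 173, 120, 67, 50 and 14 bases in Mvk and at 80 bases in Lcat. A box was thus present in genes that varied widely between libraries and in Lcat, which did not. The windows of Scap, the steadiest member (coefficient 0.214), and of Acat2 (0.253) held 0 boxes. A link between box and spread was not tested.

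Genes next to the pathway were read from 5 further lists, of which 49 of 56 members had enough counts. Of the 49, 1 passed the test, while 1.03% of all tested genes did. That gene was Cyp7a1 (ENSMUSG00000028240), the rate-limiting enzyme that turns cholesterol into bile acids. It stood at 86.9, 63.8, 86.9 and 114 CPM in PiZ/Chop-/- libraries, against 404, 314, 296 and 204 CPM in PiZ libraries. Every PiZ/Chop-/- library was below every PiZ library, and Cyp7a1 fell by 1.79 on the log2 scale (SE 0.23, 95% interval -2.28 to -1.29, adjusted p = 0.000758, edgeR). Of the 7 tested genes of oxysterol and bile acid disposal it was the 1 called, and the list's median was 0.24. At an unadjusted p below 0.05 the edgeR test found 2 of the 7, against 13.1% of all tested genes.

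Among 11 tested partners of SREBP processing and further SREBP2 targets 0 passed, with a median log2 fold change of -0.079, 8 of the 11 below 0 and 1 at an unadjusted p below 0.05, against 13.1% of all tested genes. That 1 was Tmem97, a sterol-regulated membrane protein of the endoplasmic reticulum, at 123, 105, 89.4 and 106 CPM in PiZ/Chop-/- libraries, against 157, 143, 137 and 146 CPM in PiZ libraries. Its groups did not overlap, as in 7.88% of tested genes, yet with a log2 fold change of -0.46 it missed the corrected threshold (adjusted p = 0.264, edgeR). Aup1, an adaptor in the degradation of sterol-regulated proteins, had 0.32 (adjusted p = 0.569).

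Of 9 genes of sterol efflux and its control by LXR 0 passed, with a median of 0.34, 7 of 9 above 0 and 3 at an unadjusted p below 0.05, against the same 13.1%. Lipc, hepatic lipase, averaged 54.9 ± 6.92 CPM in PiZ/Chop-/- livers and 37.7 ± 10.2 CPM in PiZ livers (SD, n = 4 each; log2 fold change 0.53, adjusted p = 0.321, edgeR), and Apoa1, the main protein of HDL, 3491 ± 290 CPM in PiZ/Chop-/- livers and 2481 ± 640 CPM in PiZ livers (0.49, adjusted p = 0.337). The 13 genes of lysosomal and intracellular sterol transfer had a median of 0.089 and the 9 of prenylation and dolichol synthesis one of -0.20, again with 0 passing in each. Gramd1c, a sterol carrier at membrane contacts, had -0.92 (adjusted p = 0.264), and Soat1, the enzyme that esterifies cholesterol in most other tissues, -0.98 (adjusted p = 0.394). In the prenylation list Coq2, of ubiquinone synthesis, had -0.85 (adjusted p = 0.467) and Icmt, which methylates prenylated proteins, -0.87 (adjusted p = 0.502). Soat1, Coq2 and Icmt had few counts. Soat1 lay at 2.30 to 4.96 CPM in PiZ/Chop-/- libraries and 2.57 to 11.2 CPM in PiZ libraries. In the same order, Coq2 lay at 3.97 to 8.62 and 3.89 to 23.7 CPM, and Icmt at 0.466 to 5.46 and 3.40 to 8.36 CPM. At an unadjusted p below 0.05 these last 2 lists held 1 of 13 and 0 of 9 genes, again against 13.1%. DESeq2 and limma-voom likewise called Cyp7a1 and 0 genes of the other 4 lists. At an unadjusted p below 0.05 DESeq2 found 1, 4, 1 and 0 genes, and limma-voom 1, 3, 2 and 0, in the lists of SREBP targets, efflux, transfer and prenylation, against 6.74% of all genes with DESeq2 and 13.3% with limma-voom.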

How the data were processed

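Liver RNA of 8 libraries was counted per gene, and the deposited values are raw counts, not normalized, per the file headers. The submitters' processing notes list STAR, HTSeq and mm10 without version numbers. For the annotation, strandedness and duplicates nothing is stated in the labels. Groups and replicate numbers came from the sample titles. Symbols and positions came from GENCODE M21 (mm10), in which 52403 of 52550 mouse IDs were found. Genes were filtered by filterByExpr (minimum count 10), scaled by TMM and tested in 1 fit over 8669 genes with edgeR 4.0.16 in R 4.3.3 (robust quasi-likelihood, no covariate). Calls needed a Benjamini-Hochberg adjusted p below 0.05. The SE is the fold change divided by the square root of F. The reads come from 3′ ends, so no length correction was made. The test was checked on simulated counts, in 5 runs over 8669 genes. It recovered 38.7% of genes set to differ 2-fold and 93.8% of those set to differ 4-fold. Of its calls 7.23% were false, more than the threshold of 0.05 aims at. The changed genes were drawn from all 8669, with a median coefficient of variation of 0.252, against 0.378 for the 18 enzymes tested. Recovery among the enzymes was not simulated apart. A gene of the list that differed 2-fold, or 4-fold where its spread was wide, could thus have been missed. Alternatives were other scalings and filters, DESeq2 1.42.0, limma-voom 3.58.1, a replicate block and omitted libraries. The members were all named, with the called or 2 lowest-p genes of each further list. Members and lists were chosen with earlier results of these data known. Depth limits counting precision only as far as reads are separate molecules.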

Additional observations from a re-analysis of the deposited data

Results flagged for a closer look

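Over the 26 tested genes in 2 groups, 52 sets of 4 libraries were searched for a library whose gap to its nearest neighbour took up most of the group's whole range, past Dixon's critical value for 4. Chance alone gives about 1 such set in 20, and 3 were found. Hsd17b7 stood at 82.2 CPM in PiZ/Chop-/- library 2, against 22.3 to 28.8 CPM in the other 3 libraries of its group, a gap of 0.892 of the range. Srebf2 stood at 77.5 CPM in PiZ library 1, against 34.2 to 38.4 CPM in the others, a gap of 0.903. Stard4 stood at 75.8 CPM in PiZ library 2, against 38.0 to 44.0 CPM in the others, a gap of 0.839.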

How the results depend on the processing

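All 18 alternatives left 0 members called higher, and 17 left 0 called lower; without PiZ/Chop-/- library 2 it was 1, Sqle, so leaving out single libraries gave 0 to 1. Genes called over the whole table numbered 89, against 357 with no filter on low counts, 208 with DESeq2 and 46 to 169 with single libraries left out (49, 169, 46 and 51 without PiZ/Chop-/- libraries 1 to 4, and 53 without PiZ library 3). The replicate numbers did not pair the libraries: deviations of same-numbered libraries correlated at -0.0513 to 0.049 and 2 of 8 libraries correlated best with their own number. With the replicate block 76 genes and 0 members were called. The members' median log2 fold change was -0.13 to 0.18 with single libraries left out and 0.25 without PiZ libraries 1 and 4 together. Cyp7a1 was called in all 18 alternatives. Signs of uncalled members turned. With library size only, Acat2 had -0.0034 and Ebp -0.010. Without PiZ libraries 1 and 4 together, Hmgcs1 had 0.59, Mvd 0.25, Fdps 0.059, Fdft1 0.26, Msmo1 0.25, Hsd17b7 0.034 and Srebf2 0.27. With single libraries left out, values ran from -0.097 to 0.30 for Acat2, -0.058 to 1.00 for Pmvk, -0.86 to 0.24 for Mvd, -0.77 to 0.056 for Fdps, -0.35 to 0.45 for Lss, -0.082 to 0.21 for Tm7sf2, -0.17 to 0.24 for Ebp, -0.42 to 0.018 for Dhcr7, -0.21 to 0.30 for Srebf2 and -0.18 to 0.13 for Soat2. The cause was not tested.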

Other observations

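Clock genes also varied between libraries of one group. A list of 16, chosen after the values were seen, was read in every library. Arntl, Npas2, Per2 and Ciart had too few counts for a test. Arntl had 1, 11, 0 and 0 counts and Npas2 0, 5, 0 and 1 in PiZ/Chop-/- libraries 1 to 4. The ranks below include these genes, whereas the shares beside them cover tested genes only. In PiZ/Chop-/- library 2, where 14 of 18 enzymes were highest, 10 of the 16 clock genes were the lowest of their group (27.3% of all tested genes), and Arntl, Clock, Npas2 and Cry1 were the highest. In PiZ library 1, 9 of the 16 were the lowest of their group (24.7% of all tested genes). In PiZ library 4, where Hmgcs1 was highest, 3 of the 16 were (33.3% of all tested genes). Tef, a clock output factor, stood at 505.5, 60.9, 466 and 509 CPM in PiZ/Chop-/- libraries 1 to 4, against 105, 430, 365 and 160 CPM in PiZ libraries 1 to 4. Dbp, its close relative, stood at 26.5, 0, 50.6 and 70.3 CPM in PiZ/Chop-/- libraries, against 2.46, 52.0, 33.1 and 23.3 CPM in PiZ libraries. The low libraries for both were PiZ/Chop-/- library 2 and PiZ libraries 1 and 4, the libraries in which Hmgcs1 was high. Of the 12 clock genes tested 0 passed between the groups (lowest adjusted p = 0.405, edgeR), while 1.03% of all tested genes did. At an unadjusted p below 0.05 the edgeR test found 0, against 13.1% of all tested genes. DESeq2, with values for 16 clock genes, and limma-voom, with values for 12, also called 0. At the unadjusted level DESeq2 found 1 and limma-voom 2, against 6.74% and 13.3% of all genes. The part of these genes in the enzyme levels was not tested.

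Lpin1 and Hspa5 are shown for the same libraries, and both were picked for display after their values were seen, Lpin1 from the list of further SREBP2 targets. Lpin1, a phosphatase which makes diacylglycerol and acts as a fasting coregulator, stood at 288, 91.4, 246 and 175 CPM in PiZ/Chop-/- libraries, against 46.1, 474, 462 and 36.1 CPM in PiZ libraries. It was lowest in PiZ/Chop-/- library 2 and in PiZ libraries 4 and 1. Hspa5, the ER chaperone BiP, stood at 2682, 5736, 1830 and 2015 CPM in PiZ/Chop-/- libraries, against 7071, 4760, 5595 and 7316 CPM in PiZ libraries, and its highest libraries in each group were those with high Hmgcs1. Between the groups Hspa5 had a log2 fold change of -1.01 (unadjusted p = 0.0085, adjusted p = 0.206, edgeR). Because both genes were picked with their values known, the match with Hmgcs1 carries no weight of its own. A link was not tested.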
